A study of Rattus norvegicus with 8 samples.

Results

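6 G protein-coupled receptor genes of PC12 cells are described here: the bradykinin receptor genes Bdkrb2 and Bdkrb1, the adenosine receptor genes Adora1, Adora2a and Adora2b, and Adcyap1r1, which encodes the receptor for the neuropeptide PACAP. The members are all probe sets whose annotated symbol is one of these 6 genes, out of 13810 gene symbols on both chips. The genes were chosen with results of the forskolin comparison known, among them the difference in Bdkrb2. Their values in that comparison are therefore given as a description. Chip A carries 13 probe sets for them and chip B carries 0. Bdkrb2 has 3, Bdkrb1 has 1, Adora1 has 2, Adora2a has 2, Adora2b has 1 and Adcyap1r1 has 4.

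PC12 is a cell line derived from a rat pheochromocytoma, a tumour of the catecholamine-secreting chromaffin cells of the adrenal medulla. Arrays labelled forskolin were set against arrays labelled no forskolin, with 2 arrays per group on each of 2 chips. The series title calls the comparison RNA an inactive control, and no source used here gives the dose, the exposure time or the nature of that control. Nothing in the labels says that replicates were separate cultures, so the spread between arrays may be technical. All cells are of 1 line, and in such bulk RNA fewer cells with a transcript and less transcript per cell cannot be told apart.

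All 6 genes encode receptors with 7 membrane-spanning segments that act through heterotrimeric G proteins. Bradykinin receptors couple mainly to Gq, which activates phospholipase C and releases calcium from internal stores. Bdkrb2 encodes the B2 receptor, present in many tissues without stimulation, and Bdkrb1 encodes the B1 receptor, which is usually scarce and is induced by injury and inflammation. The adenosine receptor of Adora1 couples to Gi, which inhibits adenylyl cyclase, while those of Adora2a and Adora2b couple to Gs, which stimulates it. The PACAP receptor stimulates adenylyl cyclase and can also act through phospholipase C, and PACAP is a transmitter at the synapse onto chromaffin cells. Forskolin activates adenylyl cyclase directly, without a receptor.

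Chip A has 15866 probe sets and chip B has 15276. On the log2 scale, array medians were 8.15 to 8.17 for chip A and 6.77 to 6.79 for chip B. Of the chromaffin and sympathetic markers, 6 of 10 tested genes were brighter than the 75th percentile of their chip, among them Th, Chga, Chgb, Scg2, Phox2a and Hand2. Dbh and Slc18a1, which also mark chromaffin cells, lay below the brightness filter. Summed over tested markers of both chips, this list came to 21515 to 21768 (linear units) with forskolin and 19403 to 19805 without forskolin. Chip B supplied 1 of its tested markers, 1 for glia, 1 for adrenal cortex, 2 for blood and endothelium and 0 for fibroblasts. Where chip B supplied markers, a sum joins a chip A and a chip B array of the same replicate number. Such a sum is the level of no single array. The fibroblast list measured 7550 to 7753 in forskolin arrays and 7442 to 7573 without forskolin. It had 3 of 5 tested genes above the 75th percentile, Col3a1, Thy1 and Fbln1. The other lists measured 1997 to 2006 against 2036 to 2050 for glia, 457.1 to 473.0 against 426.2 to 443.7 for adrenal cortex, and 647.9 to 660.7 against 656.0 to 657.3 for blood and endothelium. Above the 75th percentile lay 2 of 5 tested glia genes, 0 of 3 for adrenal cortex and 0 of 4 for blood and endothelium. Phox2a, a transcription factor gene of the sympathoadrenal lineage, was called higher, 1.33-fold (limma adjusted p = 0.000102). Another tested probe set of Hand2, which encodes a transcription factor of the same lineage, was also called higher, at 0.28 (log2), while its brightest measured 0.16 without a call. No further tested marker of these 5 lists was called. The part of these differences in the receptor values was not tested.

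Bdkrb2 was higher with forskolin on each of its 3 probe sets, by 1.67-fold to 2.94-fold, and was the only one of the 6 genes that differed by more than 0.11 (log2) on any probe set. The values are the authors' processed log2 values, 1 per probe set and array. Probe set 1370650_s_at measured 7.82 and 8.01 (log2) in the forskolin arrays, against 6.45 and 6.27 in the arrays without forskolin. Probe set 1370649_at measured 8.54 and 8.40 in the forskolin arrays, against 7.51 and 7.50 without forskolin. Probe set 1371120_s_at measured 7.53 and 7.67 in the forskolin arrays, against 6.91 and 6.80 without forskolin. Both forskolin arrays lay above both other arrays on all 3 probe sets, with a gap between the groups of at least 0.61. The 2 groups did not overlap on 48.5% of all tested probe sets of chip A, and nothing is read from the members' count.

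The rises of the 3 Bdkrb2 probe sets differed in size. The log2 change, forskolin minus no forskolin, was 1.56 ± 0.08 for 1370650_s_at (SE of limma, n = 2 arrays per group), 0.96 ± 0.06 for 1370649_at and 0.74 ± 0.06 for 1371120_s_at. These correspond to 2.94-fold, 1.95-fold and 1.67-fold, with 95% intervals of 2.59 to 3.34, 1.78 to 2.13 and 1.51 to 1.85. The change of 1370650_s_at exceeded that of 1371120_s_at by 0.81 and that of 1370649_at by 0.59, and its interval overlapped neither of theirs. Among the 11106 tested probe sets of chip A, the 3 changes ranked 15th, 40th and 59th from the top. Bdkrb2 was chosen with its change known, so these ranks are a description. In Affymetrix probe set names, the suffix _s_at marks probes that can match more than 1 transcript, and these need not be of 1 gene. The transcripts that these probe sets read may therefore differ. Whether 1370650_s_at and 1371120_s_at read Bdkrb2 alone was not tested, and 1370649_at does not carry the suffix. Where the probes lie in the gene is not given in the files used here.

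Brightness limits what the size of these rises can show. A probe set was tested where its mean linear value over the 4 arrays reached the 30th percentile of the chip, which is 7.02 (log2). Without forskolin, 1370650_s_at averaged 6.36 ± 0.13 (SD, n = 2) and 1371120_s_at 6.86 ± 0.08, both under that level, and they passed the filter through their forskolin arrays, which averaged 7.92 ± 0.13 and 7.60 ± 0.10. Probe set 1370649_at averaged 8.47 ± 0.10 with forskolin and 7.50 ± 0.01 without it, above the level in both groups. The tested receptor probe sets nearest to the filter were 1371120_s_at (0.26 above it), 1370650_s_at (0.33) and 1387302_at of Adcyap1r1 (0.37), and the nearest below was 1368730_a_at of Adcyap1r1, at -0.48. Without detection calls, the distance of such levels from background is unknown. A value near background can understate a fold change.

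**Figure D1:**
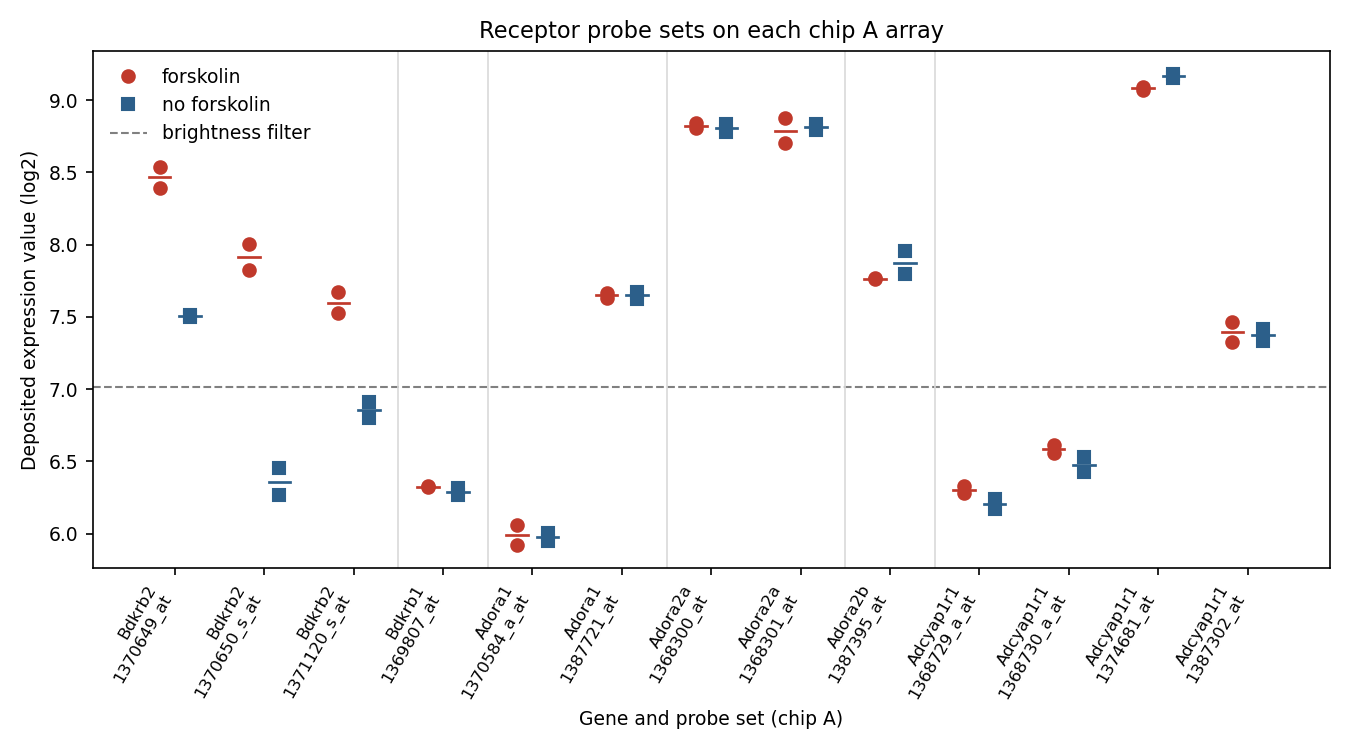
Deposited log2 expression value (vertical axis) of each receptor probe set (horizontal axis) on the 4 arrays of chip A, with forskolin arrays as red circles, arrays without forskolin as blue squares, group means as short lines and the brightness filter at 7.02 as a dashed line. The groups are far apart only for the 3 Bdkrb2 probe sets, where forskolin arrays lie at 7.53 to 8.54 and arrays without forskolin at 6.27 to 7.51.

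Of the 13 probe sets, 9 passed the brightness filter, and limma's fit over the whole chip called 3 of these 9, all higher with forskolin and all of Bdkrb2 (adjusted p under 0.05, Benjamini-Hochberg). Over all tested probe sets of chip A the same rule called 3.30% in either direction, 2.03% higher and 1.26% lower. The choice of genes used this comparison, so nothing is read from the members' share. The other 6 tested probe sets belong to 4 genes, and their log2 changes ran from -0.11 to 0.02. None had an unadjusted p under 0.05 in limma, against 788 higher and 1146 lower of the 11106 tested probe sets of chip A. With only 6 probe sets, nothing is read from this absence. The 4 probe sets below the filter were not tested, and their log2 changes ran from 0.02 to 0.11.

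Bdkrb1 lies next to Bdkrb2 on chromosome 6 in the RefSeq gene table of rat, with 1 other annotated locus between them, a long non-coding RNA. Its single probe set, 1369807_at, was dim in all arrays. It measured 6.32 and 6.33 (log2) with forskolin, against 6.32 and 6.27 without it. The log2 change was 0.04 ± 0.05 (SE, n = 2, from the fit without the filter), with a 95% interval of -0.08 to 0.15. This probe set lay 0.71 below the filter level, at a brightness where a change can be hidden, so it is not set against Bdkrb2.

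RefSeq promoter sequences (build GRCr8, 250 bases before to 50 after the annotated gene start) were matched by symbol for 4 of the 6 genes, namely Bdkrb1, Adora1, Adora2b and Adcyap1r1, and not for Bdkrb2 and Adora2a. They were searched on both strands for the palindromic cyclic AMP response element TGACGTCA, its shorter form TGACG (which the longer motif contains), the TATA box TATAAA, the CCAAT box and the GC box GGGCGG. None of the 4 held TGACG, which is in 21.2% of 33469 promoters, or TGACGTCA, which is in 1.83%. The promoter of Bdkrb1 is shown because it is the neighbouring kinin receptor gene. Its probe set was too dim to be tested, so its promoter is not set against the rise of Bdkrb2. The Bdkrb1 promoter holds none of the 5 motifs, so it has no capitals. The promoter of Adora2b is shown as the member with the most matches. Its capitals mark GGGCGG in 4 places and CCAAT in 1, motifs found in 33.1% and 37.5% of all promoters. A match is a run of letters and not evidence of binding, and no match speaks only of these 300 bases.
Bdkrb1, chr6:130275436-130275735, plus strand: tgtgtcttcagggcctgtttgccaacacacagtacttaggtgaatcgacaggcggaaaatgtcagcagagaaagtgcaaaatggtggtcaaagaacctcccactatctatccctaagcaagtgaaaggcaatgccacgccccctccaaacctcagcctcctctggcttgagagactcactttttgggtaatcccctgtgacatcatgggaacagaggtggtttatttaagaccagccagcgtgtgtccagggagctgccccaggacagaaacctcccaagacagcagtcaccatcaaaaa
Adora2b, chr10:47439462-47439761, plus strand: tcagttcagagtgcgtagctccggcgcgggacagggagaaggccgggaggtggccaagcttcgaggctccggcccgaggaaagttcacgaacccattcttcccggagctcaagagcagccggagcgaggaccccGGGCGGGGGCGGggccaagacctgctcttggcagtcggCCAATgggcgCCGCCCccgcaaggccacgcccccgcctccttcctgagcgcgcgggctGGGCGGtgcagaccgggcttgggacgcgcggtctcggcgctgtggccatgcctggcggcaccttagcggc

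The adenosine receptor genes had small differences. Adora2a, whose receptor raises cyclic AMP, had 2 probe sets above the filter. Probe set 1368300_at measured 8.81 and 8.84 (log2) with forskolin, against 8.83 and 8.78 without it. Probe set 1368301_at measured 8.87 and 8.70 with forskolin, against 8.80 and 8.83 without it. The groups overlapped on both. The log2 changes were 0.02 ± 0.04 and -0.03 ± 0.06 (SE, n = 2), with 95% intervals of -0.08 to 0.11 and -0.16 to 0.11. The replicates of 1368301_at differed by 0.17 in the forskolin group, more than either group difference.

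Adora1, whose receptor lowers cyclic AMP, measured 7.67 and 7.63 (log2) with forskolin on probe set 1387721_at, against 7.67 and 7.62 without it. The group means were equal to 2 decimals, with a log2 change of 0.00 ± 0.05 (SE, n = 2) and a 95% interval of -0.11 to 0.11. Its other probe set, 1370584_a_at, lay below the filter. It measured 6.06 and 5.92 with forskolin, against 6.003 and 5.950 without it, and the groups overlapped on both probe sets.

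Adora2b encodes an adenosine receptor of low affinity that also raises cyclic AMP. Its probe set 1387395_at measured 7.77 and 7.76 (log2) with forskolin, against 7.95 and 7.80 without it. Both forskolin arrays lay below both other arrays, but by only 0.03, and the replicates without forskolin were 0.16 apart. The log2 change was -0.11 ± 0.06 (SE, n = 2), with a 95% interval of -0.24 to 0.03, and limma did not call it. Groups that do not overlap are common on this chip. When single arrays were left out in turn the change ran from -0.19 to -0.03.

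The 4 probe sets of the PACAP receptor gene Adcyap1r1 disagreed in sign and none was called. Probe set 1374681_at measured 9.09 and 9.07 (log2) with forskolin, against 9.18 and 9.15 without it. Its groups did not overlap, with the forskolin arrays lower, but the same held for 48.5% of all tested probe sets of chip A. The log2 change was -0.08 ± 0.04 (SE, n = 2), with a 95% interval of -0.17 to 0.01. Probe set 1387302_at measured 7.47 and 7.33 with forskolin, against 7.33 and 7.42 without it, and its groups overlapped.

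The other 2 Adcyap1r1 probe sets lay below the filter and were higher with forskolin. Probe set 1368729_a_at measured 6.28 and 6.33 (log2) with forskolin, against 6.17 and 6.24 without it. Probe set 1368730_a_at measured 6.62 and 6.56 with forskolin, against 6.53 and 6.42 without it. Their groups did not overlap, but the gaps were only 0.04 and 0.03, and nothing is read from this. The log2 changes were 0.10 ± 0.05 and 0.11 ± 0.06 (SE, n = 2), with 95% intervals of -0.02 to 0.22 and -0.02 to 0.24. The interval of 1374681_at ends at 0.01, so it overlaps both. The suffix _a_at marks probes that match several transcripts of 1 gene, and the PACAP receptor is known for its splice forms. Which of these each probe set reads is not given in the files used here.

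**Figure D2:**
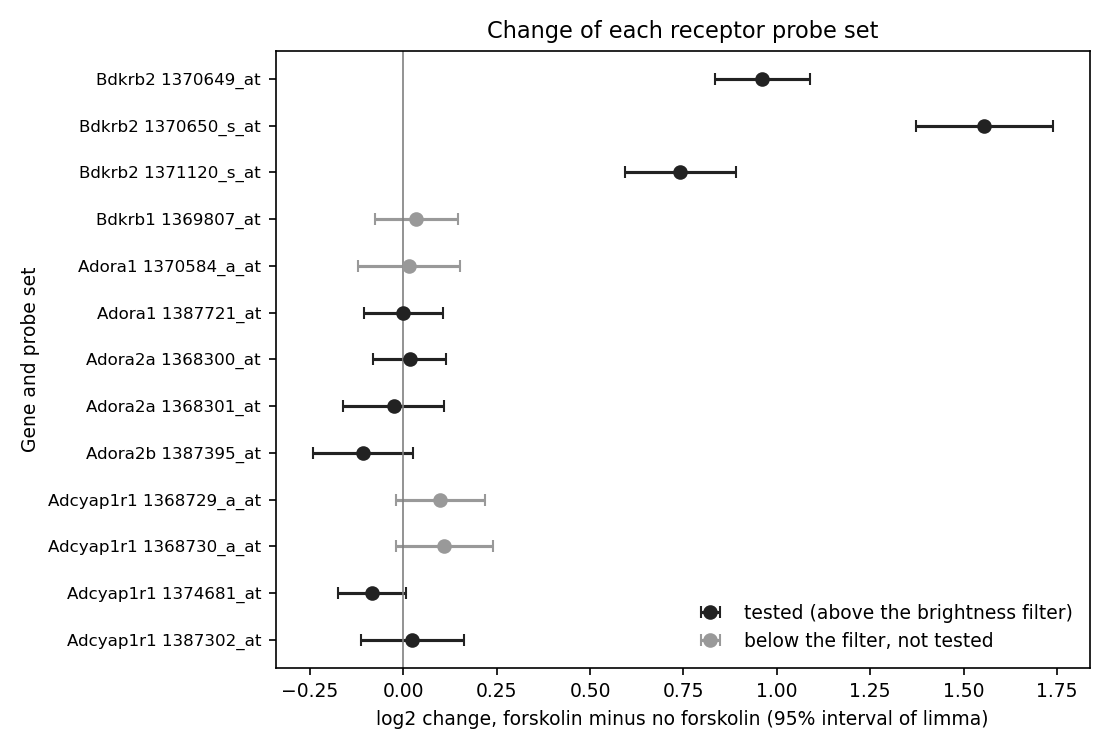
log2 change, forskolin minus no forskolin (horizontal axis), of each receptor probe set (vertical axis) with the 95% interval of limma as bars, for tested probe sets in black and probe sets below the brightness filter in grey. The 3 Bdkrb2 intervals span 0.59 to 1.74, and the intervals of the other 10 probe sets all include 0.

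For each called Bdkrb2 probe set, the 5 probe sets with the most similar pattern were found among 9360 other tested probe sets of chip A with 1 gene symbol. The measure was the Euclidean distance over the 4 arrays, after the mean of each probe set was taken off. With 2 groups of 2 arrays, likeness rests almost wholly on the size of the forskolin difference. The nearest to 1370650_s_at were both probe sets of Rgs2 (distance 0.15 and 0.18), a regulator that shortens Gq signalling, then Junb (0.18), a subunit of AP-1, Coq10b (0.25), which serves coenzyme Q function, and Rhob (0.27), a small GTPase. The nearest to 1370649_at were Errfi1 (0.04), an inhibitor of the EGF receptor, Irf2bp2 (0.05), Cebpb (0.08), a leucine zipper transcription factor, Cited2 (0.09) and Ier2 (0.11). The nearest to 1371120_s_at were Cbx8 (0.07), Zfand2a (0.14), Lpin1 (0.14), Zrsr2-ps1 (0.14) and Crem (0.14), a transcription factor gene of the CREB family. The 3 Bdkrb2 probe sets shared no neighbour.

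**Figure D3:**
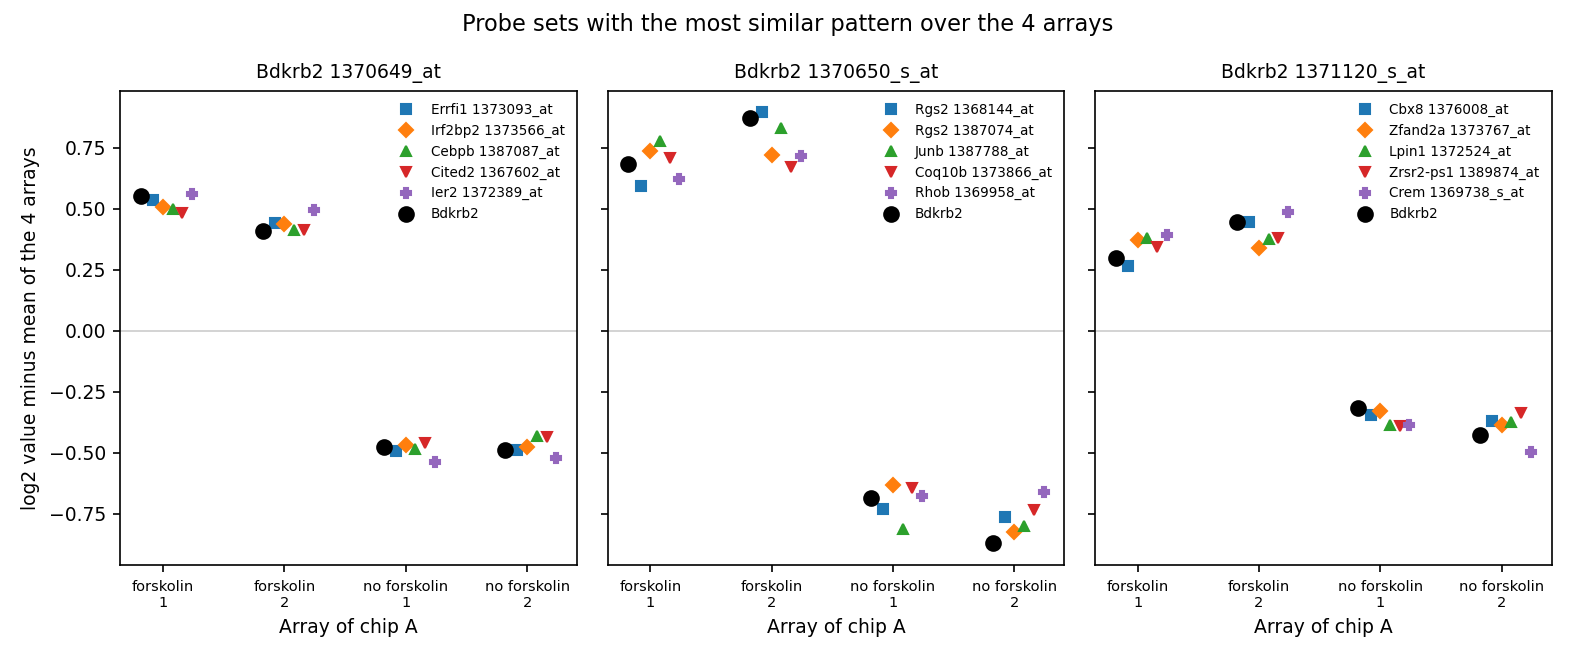
log2 value less the mean of the 4 arrays (vertical axis) on each array of chip A (horizontal axis), for the 3 Bdkrb2 probe sets (black circles) and for the 5 probe sets most like each (coloured marks, set slightly apart for legibility). Forskolin arrays lie above 0 and arrays without forskolin below 0 for all of them, with the widest separation in the panel of 1370650_s_at.

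These neighbours comprise 14 genes, of which 13 have a RefSeq promoter entry of the same length. TGACG was in a promoter of 10 of the 13 and TGACGTCA in a promoter of 3 of them (Cbx8, Crem and Ier2), against 21.2% and 1.83% of all promoters. The genes were picked by their response, Crem has 3 entries, and their promoters are richer in G and C, with a median of 65.0% against 51.7% over all promoters. TGACG contains a CG pair, so these shares are a description. The promoter of Rgs2, the gene nearest to the largest Bdkrb2 rise, is shown as an example. Its capitals mark TGACG on the opposite strand (written CGTCA, its first base at position -216 from the annotated start), GGGCGG in 4 places and CCAAT in 1.
Rgs2, chr13:58352617-58352916, minus strand: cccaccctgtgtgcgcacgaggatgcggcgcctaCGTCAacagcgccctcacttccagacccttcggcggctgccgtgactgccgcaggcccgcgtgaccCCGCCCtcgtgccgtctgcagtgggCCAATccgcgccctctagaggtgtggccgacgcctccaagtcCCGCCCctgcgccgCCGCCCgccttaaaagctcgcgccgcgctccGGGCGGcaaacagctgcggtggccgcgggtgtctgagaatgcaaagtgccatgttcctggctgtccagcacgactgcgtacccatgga

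Limma called none of the tested genes for ligands and enzymes around the 6 receptors. Over all tested probe sets of chip A it called only 3.30%. In lists this short, the absence of calls therefore does not set them apart from the chip. The same holds for the signalling lists that follow. Of 21 genes of kinin formation and breakdown, 16 were on the chips and 9 were tested. Limma called 0 of the 9 (unadjusted p under 0.05 in 1 higher and 1 lower), with a median log2 change of 0.01, against -0.01 over all tested probe sets of chip A. Cpn1, the catalytic subunit of a plasma carboxypeptidase that trims kinins, measured 0.14 ± 0.05 (SE, adjusted p = 0.216), the carboxypeptidase Cpe -0.10 ± 0.04 (adjusted p = 0.269) and the aminopeptidase Xpnpep1 -0.08 ± 0.05 (adjusted p = 0.442). The kinin-degrading peptidase Mme lay below the filter, at 5.90 and 5.89 (log2) with forskolin, against 5.86 and 5.89 without it.

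Of 25 genes that form, carry or remove adenosine, 23 were on the chips and 16 were tested. Limma called 0 of the 16 (unadjusted p under 0.05 in 0 higher and 2 lower), with a median log2 change of -0.04. The 2 were nucleoside transporters that let adenosine cross the plasma membrane. Slc29a1 measured 10.22 and 10.24 (log2) with forskolin, against 10.37 and 10.47 without it, a change of -0.19 ± 0.04 (SE, n = 2) that missed the threshold in limma (adjusted p = 0.0516). It was called lower with quantile normalization (adjusted p = 0.0209), median centring (0.00961), the stricter filter (0.0443) and without no forskolin replicate 1 (0.00712). It was not called without the filter (0.0752), with eBayes without a trend (0.0874), or without forskolin replicate 1 (0.148), forskolin replicate 2 (0.122) or no forskolin replicate 2 (0.209). Slc29a2 measured -0.11 ± 0.04 (limma adjusted p = 0.232), and Ampd2, which deaminates AMP, -0.09 ± 0.04 (0.315). Another tested probe set measured -0.03 for Slc29a2 and -0.05 for Ampd2, neither with a call. Nt5e, the surface enzyme that makes adenosine from AMP, lay below the filter on both chips.

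Of 30 genes for PACAP, related peptides and receptors of the secretin family, 27 were on the chips and only 12 were tested. Limma called 0 of the 12, and none had an unadjusted p under 0.05. The smallest p-values belonged to the incretin receptor Gipr (0.08 ± 0.05, adjusted p = 0.454), adrenomedullin, Adm (0.07 ± 0.05, 0.480), and secretin, Sct (0.07 ± 0.05, 0.516). The PACAP gene Adcyap1 was dim, at 6.960 and 7.002 (log2) with forskolin, against 6.968 and 6.970 without it on chip A, and was below the filter on chip B too. Of the 2 further receptors that bind PACAP, Vipr2 measured -0.04 ± 0.04 and Vipr1 lay below the filter. Mme, Nt5e, Adcyap1, Vipr1, Vipr2 and Adora3 were named for their tie to the members after values were seen.

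Downstream of the receptors, limma called 0 of 24 tested genes for G protein subunits and their chaperone Ric8a, and an unadjusted p fell under 0.05 in 1 higher and 3 lower. Ric8a measured -0.14 ± 0.05 (SE, adjusted p = 0.185), Gng10 -0.10 ± 0.04 (0.276) and Gnb2 -0.07 ± 0.03 (0.278). Of 4 tested adenylyl cyclases, the enzymes that forskolin activates, 0 were called and 0 had an unadjusted p under 0.05. Adcy6 measured -0.07 ± 0.04 (limma adjusted p = 0.411), Adcy3 0.05 ± 0.04 (0.513) and Adcy4 -0.04 ± 0.05 (0.742).

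Of 20 tested genes of the phospholipase C branch, through which bradykinin receptors act, limma called 0 (unadjusted p under 0.05 in 1 higher and 0 lower). The IP3 kinases Itpkb and Itpkc measured 0.18 ± 0.06 (SE, adjusted p = 0.147) and 0.13 ± 0.06 (0.320), and the protein kinase C gene Prkce 0.07 ± 0.04 (0.475). The Itpkb probe set averaged 7.02 (log2) without forskolin, at the filter level. Another tested probe set of Itpkb measured -0.11 without a call. Of 6 tested receptor kinases and arrestins, which desensitize active receptors, limma called 0 (unadjusted p under 0.05 in 1 higher and 0 lower). Grk6 measured 0.11 ± 0.04 (adjusted p = 0.193), Grk1 0.11 ± 0.05 (0.353) and Grk4 -0.17 ± 0.10 (0.407). Grk4 lay close to the filter level and measured 7.11 and 6.77 (log2) with forskolin, against 7.12 and 7.10 without it. Without forskolin replicate 2 the change of Grk4 was 0.0014. Other tested probe sets of Grk6 measured 0.04 and -0.11 without a call. The medians of these 4 signalling lists were 0.01, -0.02, 0.02 and 0.01.

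Among 83 tested genes for other G protein-coupled receptors, of 143 on the chips, 2 rose and 1 fell, and 80 were not called (unadjusted p under 0.05 in 8 higher and 5 lower). The called share was 3.61%, near the 3.30% called over all tested probe sets of chip A. On that chip 788 higher and 1146 lower of 11106 had an unadjusted p under 0.05. The first share counts genes, each through its brightest tested probe set, and the second counts probe sets. Of the 83 genes, 7 were read on chip B, where limma called 0.159% of tested probe sets. The 3 called genes are therefore given for their values and nothing is read from their number. The Wnt receptor gene Fzd1 rose 1.19-fold, with 9.32 and 9.42 (log2) in forskolin arrays against 9.14 and 9.11 without forskolin (limma adjusted p = 0.0237). The neurotensin receptor gene Ntsr2 rose 1.20-fold, with 7.33 and 7.30 in forskolin arrays against 7.04 and 7.08 without forskolin (0.0250). Fzd2, another Wnt receptor gene, fell by 0.23 (log2), with 9.02 and 9.13 in forskolin arrays against 9.29 and 9.32 without forskolin (0.0374). Each of these calls was lost when certain single arrays were left out. The limma adjusted p of Fzd1 was 0.107 without forskolin replicate 2, and that of Fzd2 was 0.142 when forskolin array 1 was left out and 0.0657 when the second array without forskolin was left out. That of Ntsr2 was 0.118 and 0.0951 when forskolin array 1 or 2 was left out, and 0.0549 when the first array without forskolin was left out. Fzd2 also lost its call without the brightness filter (0.058) and with eBayes without a trend (0.0503). P2ry12, an ADP receptor gene singled out here only for its values, had a dimmer probe set that was called higher at 0.28, while its brightest measured 0.12 without a call.

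The log2 changes of Bdkrb2 lay outside the range of these receptors. Over all 206 probe sets of the 143 genes, dim ones included, the changes ran from -0.23 (Fzd2) to 0.28 (P2ry12), and 0 reached 0.5 in either direction, whereas the smallest Bdkrb2 change was 0.74. This is a description, since Bdkrb2 was chosen with its change known. The closest relative of the adenosine receptor genes, Adora3, had 1 probe set on chip B, below the filter, with a log2 change of 0.02. Of the 174 tested genes in the 8 lists, 16 were read on chip B, where limma called 0.159% of tested probe sets and where the median SE was 0.089, against 0.045 on chip A.

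**Figure D4:**
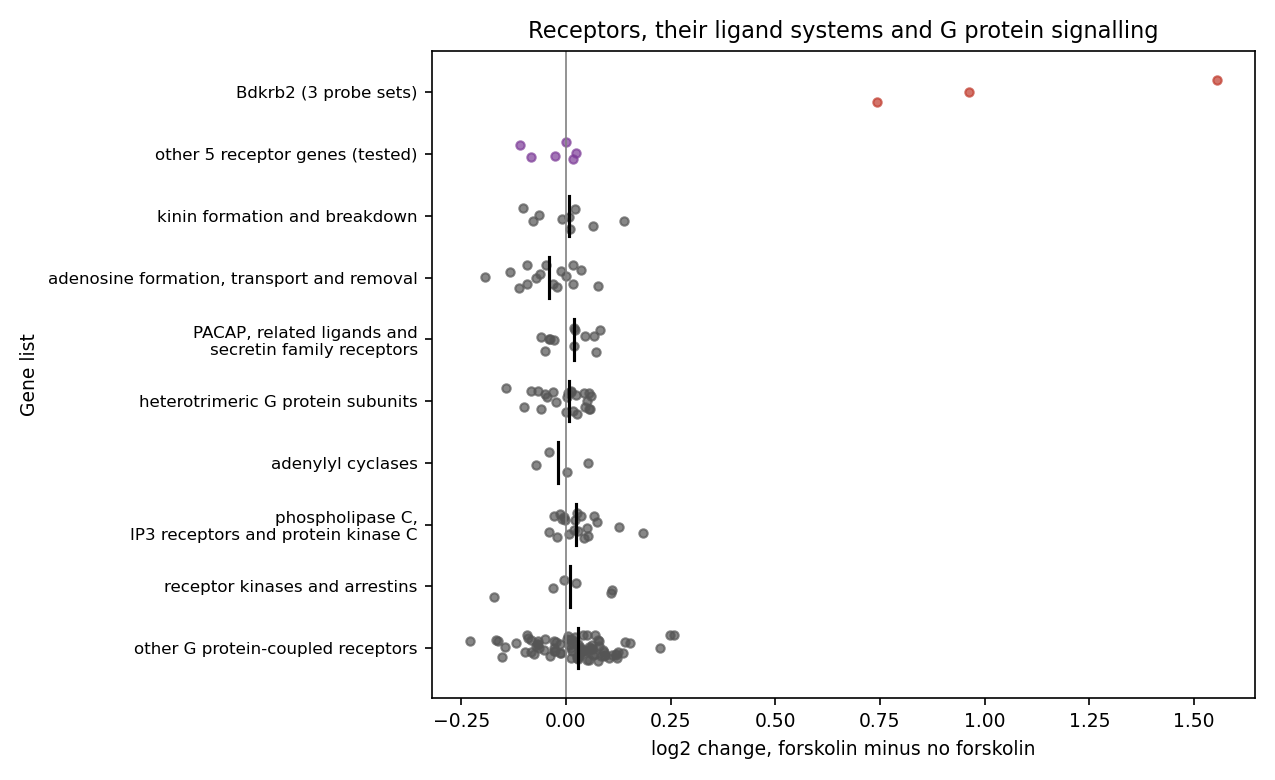
log2 change, forskolin minus no forskolin (horizontal axis), for the 3 Bdkrb2 probe sets, the 6 tested probe sets of the other receptor genes and the tested genes of 8 lists (rows), 1 point per probe set or gene, with black bars for the medians of the lists. The Bdkrb2 points lie at 0.74, 0.96 and 1.56, and all list genes lie between -0.23 and 0.26.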

How the data were processed

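Total RNA of PC12 cells was measured on 8 arrays, 4 per chip, grouped by the labels' titles. The deposited values are the authors' processed log2 expression values; the log base was inferred from the values, which stay below 16. No source used here gives the background correction, probe summary or scaling. Gene symbols came from GEO's platform annotation, updated through the Entrez number to RefSeq (GRCr8), for 12748 probe sets of chip A and 7524 of chip B. Array medians differed by less than 0.1, so the authors' scaling was kept. Probe sets under the 30th percentile of mean linear value were left out, which kept 11106 and 10693. Each chip was fitted separately by lmFit and a trended eBayes (limma 3.58.1, R 4.3.3). Two-sided p-values were adjusted over the chip by Benjamini-Hochberg, with 0.05 as the threshold. The fit was also run on simulated data with independent normal noise. Such data cannot show whether the replicate spread is technical, and nothing is read from them here. Brightness within a chip served only to filter probe sets, to pick the brightest of a gene and to place markers. The marker sums alone add levels of different genes and chips. Levels of different genes or chips are not otherwise set against each other. The number of arrays limits precision.

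The members, lists and rules were chosen with earlier results of these data known. The rule names all probe sets of the 6 genes, up to 6 called genes per list and otherwise the 3 with the smallest p, each through its brightest tested probe set, and the 5 probe sets most like each called member probe set. Alternatives were quantile normalization, median centring, no filter and a filter at the 50th percentile, eBayes without a trend, a replicate block, each array left out, and any tested probe set of a gene.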

Additional observations from a re-analysis of the deposited data

How the results depend on the processing

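The 3 Bdkrb2 probe sets, chosen with this difference known, were called under each alternative but the filter at the 50th percentile, which leaves them untested (0 called), and 2 of them pass even the 30th only through their forskolin arrays. Their log2 changes ran from 1.46 to 1.65, 0.89 to 1.03 and 0.67 to 0.82 for 1370650_s_at, 1370649_at and 1371120_s_at. The change of Adora2b ran from -0.19 to -0.03, and those of the other 9 member probe sets from -0.11 to 0.16. With 2 arrays per group, leaving 1 out shifts a change by a fixed part of the replicate gap, so these ranges restate that gap. Each array left out in turn gave 3 member probe sets called, 165 to 256 probe sets called higher and 79 to 198 lower on chip A, 8 to 47 higher and 0 to 50 lower on chip B, and 0 to 2 list genes higher and 0 to 3 lower. An arm left with 1 array is assumed to vary like the other. Of the list genes called, 2 higher and 1 lower, the stricter filter gave 1 higher and 2 lower (Ntsr2 is no longer tested, and Slc29a1 is called), and quantile normalization and median centring gave 2 lower each. No filter and eBayes without a trend gave 0 lower. Grk4 measured 0.0014 without forskolin replicate 2. Median centring gave 277 lower probe sets on chip A, against 140, and quantile normalization gave 27 higher and 3 lower on chip B, against 16 and 1. The labels share replicate numbers across groups, with nothing to say that they pair arrays. Deviations of same-numbered arrays correlated at r = 0.00 on chip A and 0.20 on chip B (across probe sets, which are not replicates). With the replicate block, 46 probe sets were called lower on chip A and 2 on chip B, and 0 list genes higher and 0 lower (limma adjusted p = 0.0909 for Fzd1, 0.103 for Ntsr2, 0.0768 for Fzd2 and 0.095 for Slc29a1), while the 3 Bdkrb2 calls remained. The cause of these shifts was not tested. Signal over background is unknown for the 4 dim member probe sets.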
